A study of Homo sapiens with 9 samples.

Results

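The ribosomal protein genes and the snoRNA host genes were taken from the count table of SKOV3 cells by name. The ribosomal protein genes were the 91 protein-coding entries whose symbols start with RPL or RPS followed by a number or by P or A (RPS6K kinases left out), and the snoRNA host genes were the 26 entries named SNHG with a number or GAS5, so that 117 of the 58735 listed genes were members. The name SNHG28 stood for 2 of these entries, of which the protein-coding one was tested. The choice used names and biotypes and no measured value. Expression was high enough to be tested for 84 ribosomal protein genes and 21 snoRNA host genes, and both groups are described apart.

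The cells were SKOV3, an ovarian cancer line, and RNA was sequenced in 3 groups of 3 libraries. The groups were cells expressing WT CDK9, the same cells given an ALK inhibitor for 24 h, and cells expressing Tyr19Phe (Y19F) CDK9, in which phenylalanine takes the place of the tyrosine that the kinase ALK phosphorylates. CDK9 is the kinase of P-TEFb, which releases paused RNA polymerase II into elongation. The study describes stable lines in which CDK9 was depleted and then re-expressed in either form; the labels do not say which lines, clones or inhibitor dose were sequenced, nor whether the libraries of a group came from separate cultures, so p-values measure the spread between libraries only. Line and CDK9 form cannot be told apart. The ALK inhibitor was compared with WT CDK9, Tyr19Phe CDK9 with WT CDK9, and Tyr19Phe CDK9 directly with the ALK inhibitor, and the 3 comparisons share libraries.

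Ribosomal proteins form, with ribosomal RNA, the large (RPL) and small (RPS) subunits of the ribosome, and dividing cells devote a large part of their mRNA to them. Their mRNAs typically begin with a cytidine and an unbroken run of pyrimidines, the 5′ terminal oligopyrimidine tract, through which mTOR signalling and LARP1 set their translation and stability. Small nucleolar RNAs (snoRNAs) guide the modification or processing of ribosomal RNA, and most human snoRNAs are cut from introns, either of ribosomal protein genes or of noncoding host genes such as GAS5 and the SNHG genes, whose spliced RNA is often degraded during translation by nonsense-mediated decay.

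RefSeq promoters (GRCh38.p14) were at hand for 72 of the 91 ribosomal protein genes and 21 snoRNA host genes. A C followed by at least 4 C or T, read on the gene's own strand, began exactly at the annotated start in 45 of the 72 ribosomal protein promoters (62.5%), in 5 of the 21 host gene promoters (23.8%) and in 4.04% of all 27305 promoters of the table. Within 10 bases of the start it was found in 59 of the 72, in 12 of the 21 and in 33.3% of all promoters. Among ribosomal protein genes that were lower in Tyr19Phe CDK9 cells, 17 of the 23 with a promoter had the tract at the start, against 3 of the 7 that were higher and 23 of the 37 that were not called. Within 10 bases of the start the counts were 21 of the 23, 5 of the 7 and 31 of the 37. In Tyr19Phe CDK9 against the ALK inhibitor, the tract began at the start in 9 of 14 lower genes and 3 of 7 higher ones. Among those not called it did so in 31 of 46. The definition of the tract was chosen with the fold changes in view. The windows printed here, 40 bases before the start and 20 from it on, show some of the genes described here that were called, with the tract at different places or missing, and the tract is in capitals; a window without capitals holds no such run within 10 bases of its annotated start. RPL9 (chr4:39458903-39458962, minus strand), with the tract 7 bases after the start, RPL34 (chr4:108620536-108620595, plus strand), RPL37A (chr2:216498804-216498863, plus strand), RPL38 (chr17:74203638-74203697, plus strand) and RPS29 (chr14:49598691-49598750, minus strand) were lower in Tyr19Phe CDK9 cells. RPL7A (chr9:133348178-133348237, plus strand) and RPL29 (chr3:51995876-51995935, minus strand) were higher. SNHG12 (chr1:28581854-28581913, minus strand) and SNHG3 (chr1:28505903-28505962, plus strand) are host genes that were higher with Tyr19Phe CDK9 than with the ALK inhibitor.
RPL9: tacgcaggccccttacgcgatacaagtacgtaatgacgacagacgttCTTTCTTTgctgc
RPL34: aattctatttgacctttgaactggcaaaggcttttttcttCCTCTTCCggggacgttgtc
RPL37A: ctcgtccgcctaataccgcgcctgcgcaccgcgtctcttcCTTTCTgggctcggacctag
RPL38: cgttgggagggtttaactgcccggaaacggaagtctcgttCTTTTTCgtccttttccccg
RPS29: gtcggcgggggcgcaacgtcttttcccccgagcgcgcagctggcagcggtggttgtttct
RPL7A: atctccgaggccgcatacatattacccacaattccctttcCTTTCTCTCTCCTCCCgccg
RPL29: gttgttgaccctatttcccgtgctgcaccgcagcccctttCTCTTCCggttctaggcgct
SNHG12: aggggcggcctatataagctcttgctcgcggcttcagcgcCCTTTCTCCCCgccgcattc
SNHG3: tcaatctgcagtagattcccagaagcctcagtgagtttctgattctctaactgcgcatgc

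Depth ranged from 18169050 to 20974903 counts per library in the WT CDK9 and ALK inhibitor groups and from 26485891 to 29320184 in the Tyr19Phe CDK9 group. A count of 3, taken as the floor, came to between 0.102 and 0.165 CPM, the counts scaled to a library total of 1000000. Genes detected numbered between 19944 and 22744 per library, fewest in ALK inhibitor replicate 2 and, within its group, in Tyr19Phe CDK9 replicate 3 (20635). Mitochondrially encoded genes took between 1.73% (WT CDK9 replicate 2) and 3.12% (Tyr19Phe CDK9 replicate 3) of all counts. Keratins and other markers of SKOV3 and epithelium summed to between 3653 and 3770 CPM with WT CDK9, between 4650 and 4685 CPM with the ALK inhibitor and between 3614 and 3844 CPM with Tyr19Phe CDK9, while 5 immune markers stayed at or below 0.717 CPM and 4 endothelial markers at or below 4.34 CPM, with PTPRC, CD3E and LYZ at 0 in the Tyr19Phe CDK9 group. Single SKOV3 and epithelial markers moved apart from their sum. Of the 7 tested by edgeR, 3 were called lower and 2 higher with Tyr19Phe CDK9 against WT CDK9 (10.4% and 7.61% of all genes), with a median log2 fold change of -0.29. With the inhibitor 0 were called lower and 2 higher (2.73% and 1.82% of all genes). The 5 fibroblast markers, 2 of which were expressed enough to be tested, summed to between 108 and 112 CPM with WT CDK9, between 125 and 162 CPM with the ALK inhibitor and between 38.1 and 52.1 CPM with Tyr19Phe CDK9. The part of these markers, of depth and of the mitochondrial share in the results was not tested. CDK9 itself was at 48.6 ± 1.03, 45.6 ± 1.77 and 55.0 ± 3.94 CPM (SD, n = 3) in the 3 groups; a point mutation leaves no mark on a gene count, so the count does not check the label.

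Ribosomal protein genes together took between 2.47% and 2.76% of all counts. The share was 2.65% ± 0.102 (SD, n = 3) with WT CDK9, 2.59% ± 0.0490 with the ALK inhibitor and 2.55% ± 0.0994 with Tyr19Phe CDK9. The 3 groups overlapped, and neither the ALK inhibitor (exact permutation test, two-sided, p = 0.5) nor Tyr19Phe CDK9 (p = 0.4) differed from WT CDK9 by more than the spread between libraries; 3 against 3 libraries cannot give less than p = 0.1. WT CDK9 replicate 2 had the highest share and the lowest mitochondrial share of its group. The snoRNA host genes took far fewer counts, 0.0456% ± 0.00256 with WT CDK9, 0.0410% ± 0.00140 with the ALK inhibitor and 0.0472% ± 0.00221 with Tyr19Phe CDK9. Every ALK inhibitor library lay below every other library in this share, which gave the smallest exact p that the design allows, 0.1, both against WT CDK9 and against Tyr19Phe CDK9. With SNHG1, the member with the most counts, left out, the share was 0.0275% ± 0.00111 with the inhibitor and 0.0302% ± 0.00185 with WT CDK9 (exact permutation p = 0.2). Since each library is scaled to its own total, a lower share and less RNA per cell cannot be told apart in such bulk data.

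**Figure D1:**
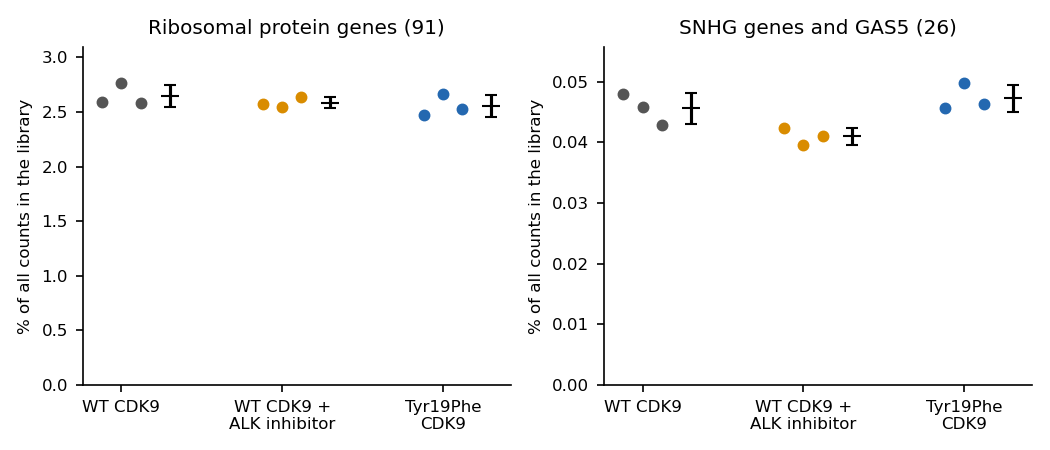
Share of all counts (%) on the 91 ribosomal protein genes (left) and on the 26 SNHG genes and GAS5 (right). Each point is a library and the bar is the mean ± SD of 3 libraries; the ribosomal protein shares of the 3 groups overlap between 2.47% and 2.76%, while the 3 ALK inhibitor libraries lie lowest on the right.

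Levels of single ribosomal protein genes were compared as CPM per kilobase of the canonical transcript in GENCODE release 44. RPS2, a protein of the mRNA entry channel of the small subunit, was the highest at 1476 CPM per kilobase in WT CDK9 cells, followed by RPLP0, the scaffold of the ribosomal stalk, at 1099.8. Then came RPS15 at 857, RPL19 at 838 and RPS20 at 829. The lowest tested ribosomal protein genes on this scale were RPS10 at 4.53, RPS27L, a paralog of RPS27, at 4.94 and RPL22L1, a paralog of RPL22, at 5.09. RPS10 overlaps the readthrough gene RPS10-NUDT3 on the same strand, and RPL36A, RPL26 and RPL17 likewise overlap other listed genes on theirs, so their values are uncertain. The canonical transcripts of RPL37 (7573 bases) and RPL14 (7136 bases) are long for such small proteins, which lowers their values per kilobase. Across the 3 WT CDK9 libraries the coefficient of variation had its 3 highest values at RPS10 (33.2%), RPL26 (27.4%) and RPL36A (13.8%).

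With the ALK inhibitor, no ribosomal protein gene was called (edgeR quasi-likelihood test, Benjamini-Hochberg adjusted p under 0.05 over 16350 genes), against a background of 2.73% of all tested genes called lower and 1.82% called higher. At an unadjusted p under 0.05 there were 20 lower and 0 higher, against 8.22% and 6.91% of all genes, and DESeq2 called 5 lower (3.69% of all genes) and 0 higher (2.78%). Most fold changes were small and on the same side: 72 of the 84 were below 0 (85.7%, against 50.3% of all tested genes), with a median log2 fold change of -0.07 beside -0.001 for all genes. In 14 of the 84 every ALK inhibitor library lay below every WT CDK9 library and in 0 above, where 10.3% and 9.31% of all genes did so. The genes DESeq2 called, named after their values were seen, were RPL4, RPL7, RPL23, RPL24 and RPS3A, with DESeq2 log2 fold changes between -0.14 and -0.10. The median stayed below 0 with each library left out, between -0.09 and -0.04, and 3 genes were called lower without ALK inhibitor replicate 3 and 1 without WT CDK9 replicate 3.

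RPS3A, a protein of the small subunit near the mRNA exit, had the smallest adjusted p with the inhibitor, above the threshold. It was at 501, 508 and 482 CPM in the WT CDK9 libraries, 438, 459 and 469 CPM in the ALK inhibitor libraries and 437, 422 and 435 CPM in the Tyr19Phe CDK9 libraries. The WT CDK9 libraries lay above all others, and the ALK inhibitor gave a log2 fold change of -0.13, SE 0.039, adjusted p = 0.0536. RPL7A, a large subunit protein whose introns carry 4 snoRNAs in the table, had -0.13 (adjusted p = 0.0954) with the inhibitor, and all of its ALK inhibitor libraries lay below all WT CDK9 libraries.

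**Figure D2:**
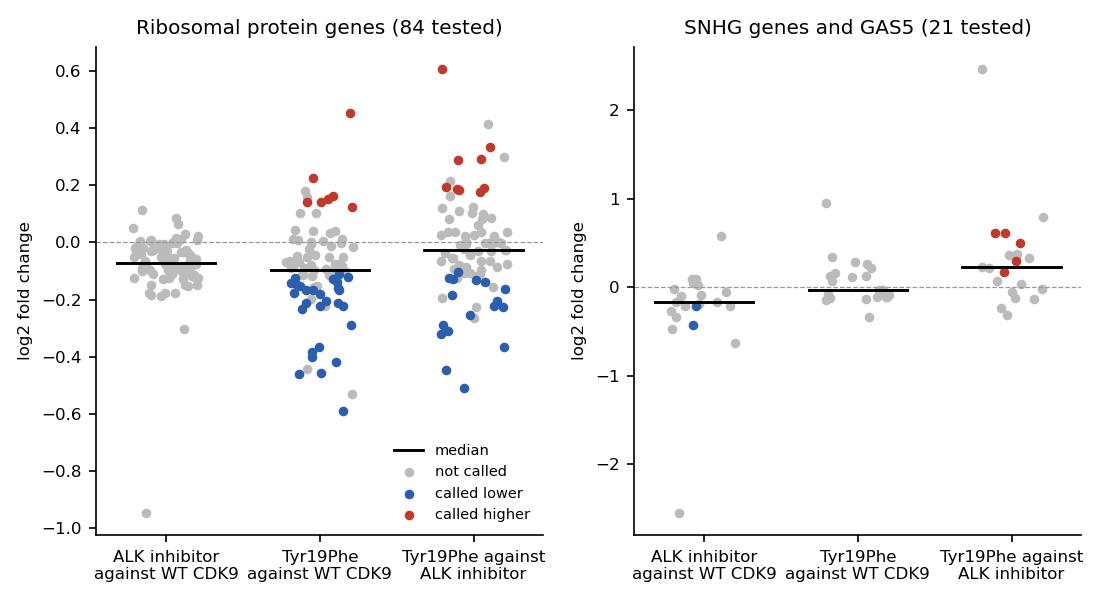
Log2 fold changes of the 84 tested ribosomal protein genes (left) and the 21 tested SNHG genes and GAS5 (right) in the 3 comparisons, with different vertical scales. Each point is a gene (blue called lower, red called higher, grey not called) and the bar is the median; with the ALK inhibitor most points lie below 0, and with Tyr19Phe CDK9 ribosomal protein genes spread in both directions, 28 called lower and 7 higher. The lowest point on the right is SNHG9, which had 0 counts in 2 ALK inhibitor libraries.

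With Tyr19Phe CDK9, 28 of the 84 ribosomal protein genes fell (33.3%, against 10.4% of all tested genes called lower) and 7 rose (8.33%, against 7.61% called higher). The median log2 fold change was -0.10, beside 0.00 for all genes, and 64 of the 84 were below 0. Values ran from -0.59 for RPS29 to 0.45 for RPL17. DESeq2 called 29 lower (10.9% of all genes) and 7 higher (7.87%). Of the 51 tested genes with names starting RPL, 17 fell and 5 rose. Of the 33 with names starting RPS, RPS19BP1 included, 11 fell and 2 rose. In 31 genes every Tyr19Phe CDK9 library lay below every WT CDK9 library (17.2% of all genes) and in 8 above (15.4% of all genes). The count of genes called lower was 14 without WT CDK9 replicate 2, 16 without Tyr19Phe CDK9 replicate 1 and 13 without Tyr19Phe CDK9 replicate 3, and that of genes called higher 2 without WT CDK9 replicate 1, 3 without WT CDK9 replicate 3 and 3 without Tyr19Phe CDK9 replicate 2. Leaving out a library can change the calls of any gene, and the share of all genes called was not counted in these fits. Called lower under all 15 alternatives, libraries left out included, were 13 genes, among them, named after their values were seen, RPL9, RPL11, RPL12, RPL23, RPL34, RPL35, RPL37, RPL37A, RPL38, RPLP0, RPS3A and RPS29. Of the 7 that rose, RPL29 was called under all of them.

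RPL9 (ENSG00000163682, chr4:39452521-39458949), a large subunit protein near the binding site of the translation factors, had the smallest adjusted p. It was at 247, 275 and 263 CPM in the WT CDK9 libraries, 246, 230.3 and 261 CPM in the ALK inhibitor libraries and 180.2, 199 and 193 CPM in the Tyr19Phe CDK9 libraries. All Tyr19Phe CDK9 libraries lay below all others, while the ALK inhibitor and WT CDK9 libraries overlapped. RPL9 fell with Tyr19Phe CDK9 (log2 fold change -0.46, SE 0.050, adjusted p = 3.16e-08) and had -0.09 (adjusted p = 0.41) with the inhibitor. Its pseudogene RPL9P9, with 2442, 2327 and 2234 counts in the WT CDK9 libraries, had 0.02 with Tyr19Phe CDK9 (edgeR adjusted p = 0.896). Another copy, RPL9P7, had 50, 71 and 77 counts there and -0.92 (edgeR adjusted p = 0.0308). How reads shared with such copies were divided is not given in the sources used here, so the size of the fall is uncertain. RPL34 (ENSG00000109475, chr4:108620566-108630412), a large subunit protein, stood at 143, 157 and 148 CPM in the WT CDK9 libraries, 127, 125 and 151 CPM in the ALK inhibitor libraries and 110.0, 109.8 and 105 CPM in the Tyr19Phe CDK9 libraries. Its Tyr19Phe CDK9 libraries were again the lowest and overlapped with neither other group, and the gene fell (log2 fold change -0.46, SE 0.061, adjusted p = 9e-07). RPL9, RPL34 and RPS3A all lie on chromosome 4. Other tested genes within 5 Mb of them, 32, 33 and 35 in number, had median log2 fold changes of -0.27, -0.36 and -0.36 with Tyr19Phe CDK9, so that RPS3A (log2 fold change -0.20, SE 0.038, adjusted p = 0.000177) fell by less than its neighbourhood; the part of the neighbourhood in these results was not tested.

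RPL37 (ENSG00000145592, chr5:40825262-40835335), a small zinc-binding protein of the large subunit, was at 157, 155 and 147 CPM in the WT CDK9 libraries, 140.4, 135 and 154 CPM in the ALK inhibitor libraries and 104, 126 and 114 CPM in the Tyr19Phe CDK9 libraries. The highest Tyr19Phe CDK9 library was below the lowest of the other groups, and the gene fell (log2 fold change -0.42, SE 0.061, adjusted p = 4.07e-06). RPL37A (ENSG00000197756, chr2:216498189-216579180), another zinc-binding large subunit protein, fell as well (log2 fold change -0.29, SE 0.054, adjusted p = 0.000165). Its values were 228, 257 and 224 CPM in the WT CDK9 libraries, 221, 214 and 242 CPM in the ALK inhibitor libraries and 181, 203 and 197 CPM in the Tyr19Phe CDK9 libraries. No Tyr19Phe CDK9 library reached the lowest of the other groups.

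RPS29 (ENSG00000213741, chr14:49570984-49599164), a zinc-binding protein of the small subunit head that is mutated in some families with Diamond-Blackfan anaemia, had the largest fall of all 84. It was at 62.2, 64.2 and 66.0 CPM in the WT CDK9 libraries, 65.3, 48.8 and 67.8 CPM in the ALK inhibitor libraries and 43.2, 45.8 and 38.7 CPM in the Tyr19Phe CDK9 libraries. The Tyr19Phe CDK9 libraries lay below all others, and ALK inhibitor replicate 2 stood apart from the remaining ALK inhibitor libraries, which were level with WT CDK9. RPS29 overlaps a listed gene on its own strand. RPS29 fell with Tyr19Phe CDK9 (log2 fold change -0.59, SE 0.091, adjusted p = 1.02e-05) and had -0.08 (adjusted p = 0.777) with the inhibitor.

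**Figure D3:**
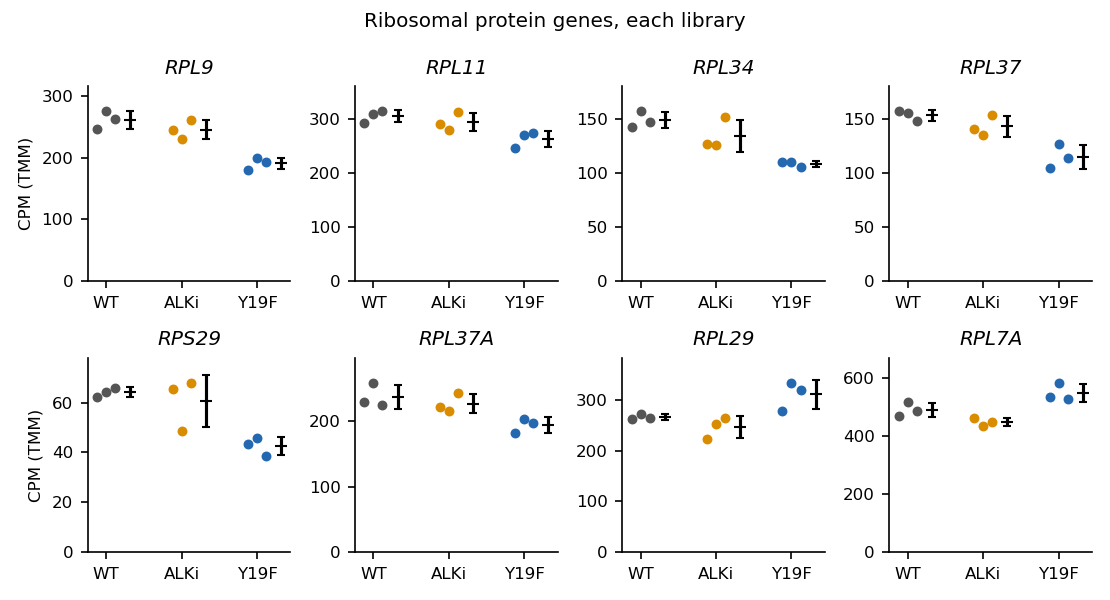
CPM (scaled by TMM, axes from 0) of 8 ribosomal protein genes in each of the 9 libraries, with the mean ± SD of each group of 3 (WT, WT CDK9; ALKi, WT CDK9 with ALK inhibitor; Y19F, Tyr19Phe CDK9). RPL9, RPL11, RPL34, RPL37, RPS29 and RPL37A are lowest in all 3 Tyr19Phe CDK9 libraries, whereas RPL29 and RPL7A are highest there.

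Among the genes that rose with Tyr19Phe CDK9, RPL29 (ENSG00000162244, chr3:51993522-51995942), a large subunit protein also known as a heparin-binding protein, was at 261, 272 and 264 CPM in the WT CDK9 libraries, 222, 252 and 264 CPM in the ALK inhibitor libraries and 278, 333 and 319 CPM in the Tyr19Phe CDK9 libraries. The Tyr19Phe CDK9 libraries lay above all others (log2 fold change 0.22, SE 0.055, adjusted p = 0.00367). RPL7A (ENSG00000148303, chr9:133348214-133351426) was at 470.3, 517 and 486 CPM in the WT CDK9 libraries, 463, 436 and 451 CPM in the ALK inhibitor libraries and 536, 584 and 529 CPM in the Tyr19Phe CDK9 libraries. It rose (log2 fold change 0.16, SE 0.042, adjusted p = 0.00555) by less than the median of its 158 tested neighbours, which was 0.22. Smaller rises were seen for RPL10, which is added last to the large subunit near its catalytic centre (log2 fold change 0.12, adjusted p = 0.0129), RPS15 of the small subunit head (log2 fold change 0.14, adjusted p = 0.0139), RPL13 (log2 fold change 0.15, adjusted p = 0.0158) and RPS24 (log2 fold change 0.14, adjusted p = 0.0371), whose 66 tested neighbours had a median of 0.20. RPL17, which lines the peptide exit tunnel, had the largest rise (log2 fold change 0.45, SE 0.140, adjusted p = 0.0198) at a low count: 313, 328 and 248 counts with WT CDK9, 330, 189 and 306 with the inhibitor and 641, 566 and 584 in the deeper Tyr19Phe CDK9 libraries. It shares its locus with the readthrough gene RPL17-C18orf32, and reads of both cannot be told apart here.

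By role, 3 of the 4 stalk genes fell with Tyr19Phe CDK9, with a median of -0.14 over the 4. RPLP0 carries the acidic stalk and fell by 0.16 on the log2 scale (SE 0.037, adjusted p = 0.00174), RPLP2 of the stalk had -0.13 (adjusted p = 0.0454) and RPL12 of the stalk base -0.18 (adjusted p = 0.00443), while RPLP1 stood at 0.04 (adjusted p = 0.63). RPLP2 was called in 1 of the 6 fits that left out a library. RPL5 and RPL11, which carry 5S ribosomal RNA and can bind MDM2, had different values: RPL11 fell (log2 fold change -0.21, SE 0.047, adjusted p = 0.0012) and RPL5 was at -0.02 (adjusted p = 0.783). RPL11 was at 293, 309 and 315 CPM in the WT CDK9 libraries, 292, 281 and 313 CPM in the ALK inhibitor libraries and 247, 271 and 274 CPM in the Tyr19Phe CDK9 libraries, and its Tyr19Phe CDK9 libraries lay below the rest. RPL5 was at 300.4, 303 and 288 CPM in the WT CDK9 libraries, 291, 298 and 275 CPM in the ALK inhibitor libraries and 295, 290.2 and 292 CPM in the Tyr19Phe CDK9 libraries, with all 3 groups overlapping. The difference between the 2 genes was not tested.

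The following counts with Tyr19Phe CDK9 stand beside 10.4% of all genes called lower and 7.61% called higher, and beside 33.3% and 8.33% of the ribosomal protein genes. Of 8 genes at the peptide exit tunnel, 2 fell and 1 rose, and of 4 at the mRNA channel and decoding side RPS15 rose while RPS2 had -0.08 (adjusted p = 0.166), RPS3 0.01 (adjusted p = 0.93) and RPS23 -0.15 (adjusted p = 0.0768). RPS27A, which is made as a fusion with ubiquitin and is named here after its value was seen, fell (log2 fold change -0.14, adjusted p = 0.0146). Of 18 genes in which Diamond-Blackfan anaemia variants are known, 6 fell, the same 33.3% as among all 84 tested ribosomal protein genes, and 1 rose, with a median of -0.12. The 6 tested paralogs (RPL7L1, RPL22L1, RPL26L1, RPL36AL, RPL39L and RPS27L) gave 0 calls with edgeR, 0 at an unadjusted p under 0.05 and 0 with DESeq2. Of all genes, 15.6% were lower and 13.4% higher at an unadjusted p under 0.05, and 10.9% and 7.87% with DESeq2. The log2 fold changes of the paralogs lay between -0.08 for RPL36AL and 0.16 for RPL22L1. RPS19BP1, matched by its name but a nucleolar partner of RPS19 and no ribosomal protein, was at 0.10 (adjusted p = 0.512). RPL3L, RPL10L and the readthrough genes RPL17-C18orf32, RPS10-NUDT3 and RPL36A-HNRNPH2 had too few counts to test, as had 2 members on the Y chromosome.

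**Figure D4:**
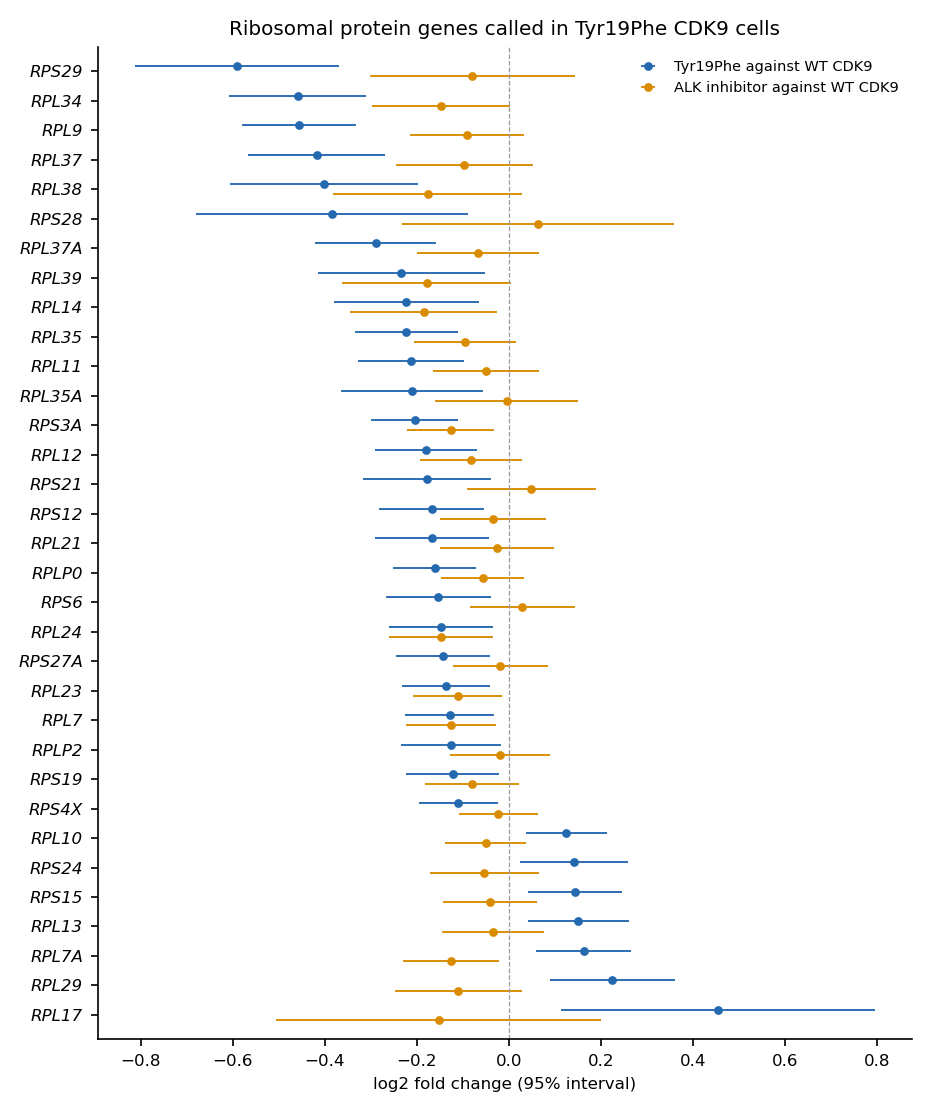
Log2 fold changes with 95% intervals for ribosomal protein genes among the 35 called in Tyr19Phe CDK9 cells, against WT CDK9 (blue), with the values of the ALK inhibitor against WT CDK9 (orange) beside them. The intervals were drawn with 6 degrees of freedom, fewer than the quasi-likelihood test uses, and are wider than its p-values imply. The blue values run from -0.59 for RPS29 to 0.45 for RPL17, and the same controls underlie the blue and orange values.

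Several of the genes that fell code for short proteins, but the median coding length of the 28 that fell was not below that of those not called. It was 451.5 bases, beside 438 for the 49 not called and 552 for the 7 that rose. Across the 84 tested genes, shorter coding lengths went with lower log2 fold changes (Spearman rank correlation 0.23, and 0.33 among the 73 with a mean of at least 50 CPM). In the direct comparison with the ALK inhibitor, the 17 lower genes had a median of 396 bases, beside 448.5 for the 58 not called and 477 for the 9 higher. These relations were not tested. Coding lengths in the canonical transcripts were 168 bases for RPS29, 210 for RPL38, 276 for RPL37A, 291 for RPL37 and 351 for RPL34. With a bound of 400 bases, set after the values were seen, 12 of 29 shorter ribosomal protein genes fell and 1 rose, against 16 and 6 of the 55 longer ones. Among other protein-coding genes with up to 400 coding bases, 49 of 601 were called lower and 55 higher. After a trend of each library with transcript length and GC content had been removed, 33 ribosomal protein genes were called lower and 5 higher. The share of all genes called in that fit was not counted, so these counts cannot be set beside one.

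In the direct comparison of Tyr19Phe CDK9 with the ALK inhibitor, 17 ribosomal protein genes were lower (20.2%, against 11.1% of all tested genes) and 9 were higher (10.7%, against 9.57%). DESeq2 called 18 lower (11.4% of all genes) and 9 higher (9.33%). The median was -0.03, and 0.00416 without Tyr19Phe CDK9 replicate 1. Without ALK inhibitor replicate 3 there were 9 lower, without Tyr19Phe CDK9 replicate 1 also 9 and without Tyr19Phe CDK9 replicate 3 11, and 26 lower with 9 higher once the length and GC trend was removed. For none of these fits was the share of all genes called counted. RPS29 (log2 fold change -0.51, adjusted p = 7.7e-05), RPL9 (log2 fold change -0.36, adjusted p = 1.59e-06), RPL37 (log2 fold change -0.32, adjusted p = 0.000178) and RPL34 (log2 fold change -0.31, adjusted p = 0.000277) were lower with Tyr19Phe CDK9. RPL7A (log2 fold change 0.29, adjusted p = 4.19e-06), RPL29 (log2 fold change 0.33, adjusted p = 2.97e-05), RPL10 (log2 fold change 0.17, adjusted p = 0.000472), RPS15 (log2 fold change 0.18, adjusted p = 0.00141), RPL17 (log2 fold change 0.61, adjusted p = 0.00171) and RPL13 (log2 fold change 0.19, adjusted p = 0.0026) were higher with Tyr19Phe CDK9 than with the inhibitor, and RPS19BP1 was too (log2 fold change 0.29, adjusted p = 0.0231; its 6 fits with a library left out gave 3 calls).

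Among the snoRNA host genes, SNHG1 was by far the most abundant, at 134 CPM per kilobase in WT CDK9 cells, ahead of SNHG16 at 74.7 and GAS5 at 71.3, while SNHG3, SNHG12 and SNHG7 stood at 12.5, 9.16 and 9.16. Introns of SNHG1 carry C/D box snoRNAs, which guide 2′-O-methylation of RNA. The reference sequences of SNORD30 (chr11:62853663-62853732), SNORD27 (chr11:62855012-62855083) and SNORD25 (chr11:62855564-62855632), all on the minus strand within SNHG1 (GRCh38, from GENCODE), are given as DNA to show what this transcript hosts, with box C (TGATGA) and box D (CTGA) in capitals.
SNORD30: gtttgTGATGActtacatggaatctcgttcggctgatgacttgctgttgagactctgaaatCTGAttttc
SNORD27: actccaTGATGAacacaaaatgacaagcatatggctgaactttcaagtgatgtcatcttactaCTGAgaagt
SNORD25: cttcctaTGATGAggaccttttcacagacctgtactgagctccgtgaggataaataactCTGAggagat

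With the ALK inhibitor, 2 of the 21 tested host genes fell (9.52%, against the 2.73% of all genes called lower), SNHG1 and SNHG3. The number that rose was 0 with edgeR, 0 at an unadjusted p under 0.05 and 0 with DESeq2. Of all genes, 1.82%, 6.91% and 2.78% were higher under these 3 rules. Below 0 were 16 of the 21, and the median log2 fold change was -0.16, beside -0.001 for all genes. SNHG1 (ENSG00000255717, chr11:62851988-62855914) was at 169.9, 147 and 150.2 CPM in the WT CDK9 libraries, 136, 127 and 141 CPM in the ALK inhibitor libraries and 145, 159.8 and 151 CPM in the Tyr19Phe CDK9 libraries. Every ALK inhibitor library lay below every WT CDK9 library, and SNHG1 fell (log2 fold change -0.21, SE 0.057, adjusted p = 0.0253). SNHG3 (chr1:28505980-28510892), which hosts the H/ACA snoRNAs SNORA73A and SNORA73B, was at 29.8, 28.5 and 24.2 CPM in the WT CDK9 libraries, 19.7, 19.5 and 22.4 CPM in the ALK inhibitor libraries and 29.8, 28.6 and 28.6 CPM in the Tyr19Phe CDK9 libraries. The ALK inhibitor libraries were the lowest (log2 fold change -0.42, SE 0.107, adjusted p = 0.0144). SNHG3 overlaps the protein-coding gene RCC1 on the same strand. Neither call held throughout. Both were lost without WT CDK9 replicate 1, without ALK inhibitor replicate 1 and without ALK inhibitor replicate 2, and SNHG3 was also lost without WT CDK9 replicate 2. The count of host genes called lower was then 0, 1, 0 and 1, where the 1 without ALK inhibitor replicate 1 was SNHG9, with 0 counts in the remaining ALK inhibitor libraries, and the 1 without WT CDK9 replicate 2 was SNHG1.

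At an unadjusted p under 0.05, 7 of the 21 host genes were lower with the inhibitor, where 8.22% of all tested genes were. Besides SNHG1 and SNHG3 these were GAS5 (log2 fold change -0.18, adjusted p = 0.309), SNHG7 (log2 fold change -0.27, adjusted p = 0.324), SNHG12 (log2 fold change -0.33, adjusted p = 0.209), SNHG4 (log2 fold change -0.47, adjusted p = 0.243) and SNHG9. SNHG9 had 15, 11 and 9 counts in the WT CDK9 libraries, 6, 0 and 0 in the ALK inhibitor libraries and 9, 18 and 21 in the Tyr19Phe CDK9 libraries; these counts are near the floor and its adjusted p was 0.174 with the inhibitor. In 5 of the 21 every ALK inhibitor library lay below every WT CDK9 library (10.3% of all genes) and in 1 above (9.31% of all genes).

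With Tyr19Phe CDK9, no snoRNA host gene was called against WT CDK9 by edgeR or DESeq2. Of all genes, 10.4% were called lower and 7.61% higher by edgeR, and 10.9% and 7.87% by DESeq2. At an unadjusted p under 0.05, 0 were lower and 2 higher (9.52% of the 21), where 15.6% of all genes were lower and 13.4% higher. The median log2 fold change was -0.02, and 11 of the 21 were below 0. Leaving out a library moved the median between -0.054 and 0.12, so it had no stable sign. The 2 genes at an unadjusted p under 0.05 were SNHG7 (log2 fold change 0.34, SE 0.126, adjusted p = 0.0564) and SNHG12 (log2 fold change 0.29, SE 0.130, adjusted p = 0.135). One gene was called higher without WT CDK9 replicate 2, without Tyr19Phe CDK9 replicate 1 and without Tyr19Phe CDK9 replicate 3. GAS5, named for its build-up in growth-arrested cells, was at 0.12 (adjusted p = 0.364).

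In the direct comparison, 5 of the 21 host genes were higher with Tyr19Phe CDK9 than with the ALK inhibitor (23.8%, against 9.57% of all genes called higher). By edgeR or DESeq2, 0 were lower (against 11.1% of all genes by edgeR and 11.4% by DESeq2). At an unadjusted p under 0.05, 1 was lower, where 16.4% of all genes were. The median was 0.24. SNHG7 (chr9:136721366-136728184), host of SNORA17A and SNORA17B, was at 21.2, 23.7 and 19.8 CPM in the WT CDK9 libraries, 21.0, 15.8 and 16.8 CPM in the ALK inhibitor libraries and 25.1, 33.1 and 23.9 CPM in the Tyr19Phe CDK9 libraries. All Tyr19Phe CDK9 libraries lay above all ALK inhibitor libraries and also above the WT CDK9 ones (log2 fold change 0.61, SE 0.128, adjusted p = 0.000563), beside a median of 0.22 over its 103 tested neighbours on chromosome 9. SNHG12 (chr1:28578538-28583132) was at 17.2, 16.6 and 17.6 CPM in the WT CDK9 libraries, 15.1, 14.1 and 11.6 CPM in the ALK inhibitor libraries and 17.2, 22.7 and 22.9 CPM in the Tyr19Phe CDK9 libraries. The groups in this comparison did not overlap, with Tyr19Phe CDK9 the higher one (log2 fold change 0.62, SE 0.132, adjusted p = 0.000755). GAS5 (ENSG00000234741, chr1:173863900-173868882) was at 60.7, 55.6 and 47.9 CPM in the WT CDK9 libraries, 52.8, 44.4 and 47.6 CPM in the ALK inhibitor libraries and 55.6, 59.6 and 63.8 CPM in the Tyr19Phe CDK9 libraries. Its Tyr19Phe CDK9 libraries were all above its ALK inhibitor libraries (log2 fold change 0.30, SE 0.085, adjusted p = 0.00878). SNHG3 (log2 fold change 0.50, adjusted p = 0.000635) and SNHG1 (log2 fold change 0.18, adjusted p = 0.0233) were the remaining 2. SNHG3, SNHG7 and SNHG12 were called with every library left out; 3 genes were called without ALK inhibitor replicate 2. The strand setting of the counting is not given in the sources used here, and SNHG7, SNHG12 and GAS5 overlap genes on the other strand.

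**Figure D5:**
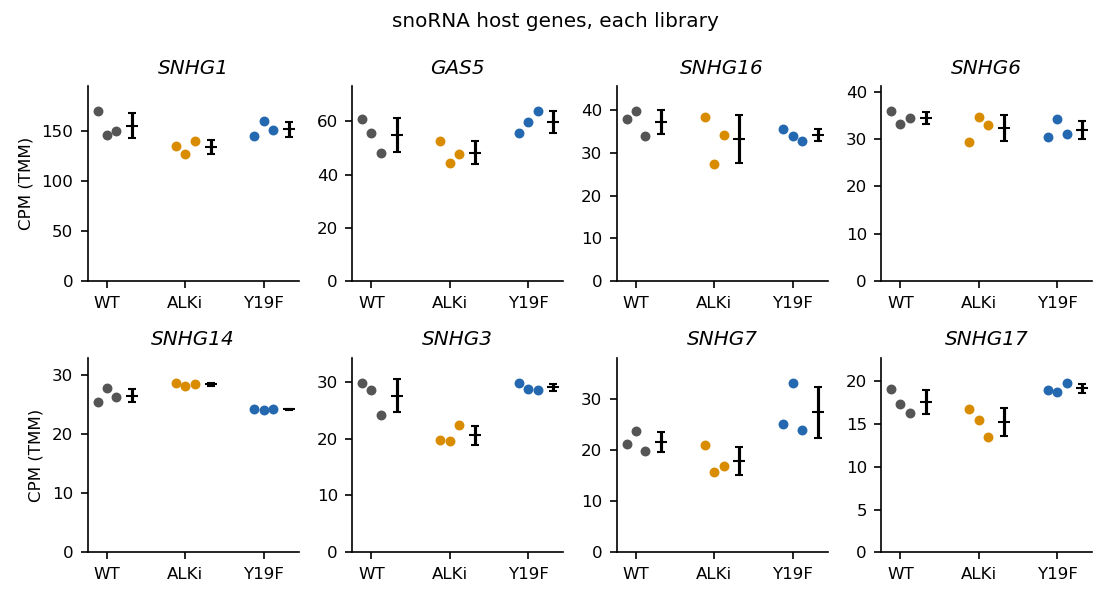
CPM (scaled by TMM, axes from 0) of the 8 most abundant snoRNA host genes in each of the 9 libraries, with the mean ± SD of each group of 3 (WT, WT CDK9; ALKi, WT CDK9 with ALK inhibitor; Y19F, Tyr19Phe CDK9). SNHG1 and SNHG3 are lowest in the ALK inhibitor libraries, and GAS5, SNHG3, SNHG7 and SNHG12 are higher in each Tyr19Phe CDK9 library than in any ALK inhibitor library.

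Genes that work with these members were described from lists of known function. Their counts stand beside 2.73% of all genes called lower and 1.82% called higher with the inhibitor, 10.4% and 7.61% with Tyr19Phe CDK9 and 11.1% and 9.57% in the direct comparison. Of 57 ribosome biogenesis factors, 6 were lower and 0 higher with the ALK inhibitor by edgeR, with a median of -0.12; 4 were lower and 6 higher with Tyr19Phe CDK9, with a median of -0.01; and in the direct comparison 1 was lower and 13 higher with Tyr19Phe CDK9, with a median of 0.13. DDX21, a nucleolar helicase, fell with the inhibitor (log2 fold change -0.25, adjusted p = 0.000502), as did the nucleolar chaperones NPM1 (log2 fold change -0.17, adjusted p = 0.00152) and NOLC1 (log2 fold change -0.28, adjusted p = 0.00562). With Tyr19Phe CDK9, PES1 of the large subunit pathway (log2 fold change 0.33, adjusted p = 6.84e-05) and RRS1 (log2 fold change 0.44, adjusted p = 0.00215) rose and UTP3 (log2 fold change -0.39, adjusted p = 0.00217) fell, the last of these among neighbours with a median of -0.26. The neighbours of PES1 had a median of 0.17 and those of RRS1 a median of -0.02. Of 23 snoRNA maturation and particle proteins, 1 was lower with the inhibitor, NOP56 of the C/D particle (log2 fold change -0.19, adjusted p = 0.0102), and 2 were lower and 1 higher with Tyr19Phe CDK9.

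The same shares of all genes, 2.73% lower with the inhibitor and 10.4% lower and 7.61% higher with Tyr19Phe CDK9, apply to the remaining lists. Of 22 translation factors and similar genes usually counted with the terminal oligopyrimidine mRNAs, 3 fell with the inhibitor, PABPC1 (log2 fold change -0.37, adjusted p = 8.68e-10), NAP1L1 (log2 fold change -0.18, adjusted p = 0.0024) and HNRNPA1 (log2 fold change -0.14, adjusted p = 0.0255). With Tyr19Phe CDK9 4 fell, among them the elongation factor EEF1A1 (log2 fold change -0.27, adjusted p = 1.64e-09), and 2 rose. PABPC1 (log2 fold change -0.25, adjusted p = 5.41e-07) and HNRNPA1 (log2 fold change -0.28, adjusted p = 1.22e-06) fell there as well. The median of the list with Tyr19Phe CDK9 was 0.02, and 9 of the 22 were below 0. In the direct comparison 3 were lower with Tyr19Phe CDK9 (against 11.1% of all genes) and 6 higher (against 9.57%). Of 16 regulators of such mRNAs none was called with the inhibitor, while with Tyr19Phe CDK9 5 fell and 2 rose: LARP1, which binds the tract, had -0.27 (adjusted p = 6.5e-06), the mTOR partner RPTOR -0.28 (adjusted p = 0.00386) and EIF4EBP1, which mTOR phosphorylates, 0.46 (adjusted p = 0.000209). Of 18 nonsense-mediated decay factors, 1 fell with the inhibitor, the kinase SMG1 (log2 fold change -0.16, adjusted p = 0.0116), and 2 fell and 1 rose with Tyr19Phe CDK9, SMG1 among those that fell (log2 fold change -0.29, adjusted p = 9.96e-07). Of 20 RNA polymerase I subunits and factors, 2 fell and 1 rose with Tyr19Phe CDK9, the transcription factor UBTF among those that fell (log2 fold change -0.22, adjusted p = 0.000159). For the lists of decay factors and RNA polymerase I factors the counts with Tyr19Phe CDK9 were near those shares of all genes.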

How the data were processed

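RNA of 9 SKOV3 libraries, 3 in each of 3 groups, was sequenced by the authors, who deposited raw counts per gene. According to the submitters' processing notes, CASAVA, HISAT2 2.0.5 and featureCounts 1.5.0-p3 were used with the human GRCh38 genome; the annotation release, the strand setting and the inhibitor's name and dose are not given in the sources used here. Counts were analysed as deposited. Genes passing filterByExpr of edgeR 4.0.16 (R 4.3.3; minimum count 10, minimum total 15) were scaled by TMM and fitted together over all 9 libraries with the quasi-likelihood test, which left 6 residual degrees of freedom, and p-values were adjusted by the Benjamini-Hochberg method over 16350 genes. A gene was called at an adjusted p under 0.05. CPM values are TMM scaled, whereas shares use raw totals. Shares were compared by two-sided exact permutation tests (scipy 1.17.1). DESeq2 1.42.0, 3 other scalings, another filter, removal of each library's length and GC trend, a replicate block, fits of the compared groups and leaving out each library were alternatives. Shares of all genes called were counted for the reported fit and DESeq2, not for the other alternatives. The fitting code was tested on simulated data.

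Named were the 6 called ribosomal protein genes with the smallest adjusted p per comparison and direction, the 5 highest and 3 lowest per kilobase, the 3 with the widest WT CDK9 spread, the paralog, stalk and 5S genes, any tested host gene and up to 3 called genes per direction of each pathway list; RPS2, RPS3, RPS23, RPS24, RPS27A, RPL13 and RPL17 in other places, and all genes given for their stability, were added after their values were seen. Members and lists were chosen with earlier results of these data known. Sequences are from RefSeq (GRCh38.p14) and the GENCODE annotation. Members on the Y chromosome are not reported by value, and a few other members that count in the totals are not reported here by name.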

Additional observations from a re-analysis of the deposited data

How the results depend on the processing

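Over the 9 alternatives that kept all libraries, the median of the ribosomal protein genes stayed below 0 in each comparison, from -0.08 to -0.04 with the ALK inhibitor and from -0.11 to -0.07 with Tyr19Phe CDK9 against WT CDK9. The ribosomal protein genes called lower with Tyr19Phe CDK9 against WT CDK9 ranged from 19 to 34, where the reported count was 28. Those called higher ranged from 5 to 7, where it was 7. With the inhibitor, ribosomal protein genes called lower numbered 5 with DESeq2, 1 without the filter, 2 with the length and GC trend removed and 1 in a fit of the compared groups alone, where the reported count was 0. Against the inhibitor, 26 were lower with Tyr19Phe CDK9 once the trend was removed, in place of 17. Host genes called lower with the inhibitor numbered 1 with library size alone, and host genes called higher with Tyr19Phe CDK9 against WT CDK9 numbered 1 with library size alone, 1 without the filter and 1 in the fit of the compared groups. The causes were not tested.

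The labels do not say whether the replicate numbers pair the libraries. Deviations of same-numbered libraries correlated between -0.012 and 0.026, and those of differently numbered ones between -0.034 and 0.020. Correlations this near to 0 in both cases cannot decide whether libraries were paired. With the replicate block, 2 ribosomal protein genes were called lower with the inhibitor, 3 with the block and the trend removed, 26 were lower with Tyr19Phe CDK9 than with the inhibitor with both, and 1 host gene was called higher with Tyr19Phe CDK9 against WT CDK9.

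With 1 library left out, ribosomal protein genes called lower ranged from 0 to 3 with the inhibitor, from 13 to 36 with Tyr19Phe CDK9 against WT CDK9 and from 9 to 23 against the inhibitor; those called higher ranged from 2 to 6 and from 7 to 9 in the last 2 comparisons. Host genes called lower with the inhibitor ranged from 0 to 2, and those called higher from 0 to 1 with Tyr19Phe CDK9 against WT CDK9 and from 3 to 7 against the inhibitor. The median of the host genes ranged from -0.23 to -0.12 with the inhibitor, from -0.054 to 0.12 with Tyr19Phe CDK9 against WT CDK9 and from 0.15 to 0.28 against the inhibitor. The difference in ribosomal protein share between Tyr19Phe CDK9 and the inhibitor ranged from -0.0890 to 0.00706 percentage points, and turned to 0.00706 without Tyr19Phe CDK9 replicate 1. Whether smaller changes of host genes could be detected at this depth was not tested. No share of all genes called was counted with a library left out, so these ranges cannot be set beside one.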

Other observations

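Retained copies of ribosomal protein genes take reads that resemble those of their parents. The table listed 1144 ribosomal protein pseudogenes of 77 members, which together held between 3.77% and 4.01% as many counts as their parents in each library, and 79 were expressed enough to be tested. This pooled part can differ from that of a single parent. With Tyr19Phe CDK9 against WT CDK9, RPL39P3 and RPL9P7 were called lower and RPL13P12 and RPL14P1 higher. RPL9P9, another copy of RPL9, had 2442, 2327 and 2234 counts with WT CDK9 and 3618, 3604 and 3198 in the deeper Tyr19Phe CDK9 libraries, a log2 fold change of 0.02 (edgeR adjusted p = 0.896), whereas RPL9 itself fell by 0.46 on the log2 scale. How multiply mapped reads were divided among such copies is not given in the sources used here.

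The snoRNAs themselves were hardly counted. Within 29 ribosomal protein genes lay 60 listed snoRNAs, of which 14 had a count and 4 could be tested, and within 24 host genes lay 132, of which 19 had a count and 3 could be tested. Counts on the snoRNAs nested in ribosomal protein genes summed to between 2.76 and 5.02 CPM with WT CDK9, between 2.81 and 4.84 CPM with the ALK inhibitor and between 4.16 and 4.98 CPM with Tyr19Phe CDK9. On those nested in host genes the sums were between 3.90 and 4.73 CPM, between 2.43 and 4.02 CPM and between 3.68 and 4.27 CPM. All snoRNAs of the table, nested in members or not, summed to between 28.1 and 28.8 CPM with WT CDK9, between 21.3 and 22.4 CPM with the ALK inhibitor and between 23.2 and 30.6 CPM with Tyr19Phe CDK9, so that every ALK inhibitor library lay below every other library; their sum rests on between 387 and 811 counts per library, and the difference was not tested. Among the 7 nested snoRNAs tested, the smallest edgeR adjusted p in any comparison was 0.136, for SNORD101 within RPS12 in Tyr19Phe CDK9 against ALK inhibitor cells.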
